A study of Mus musculus with 14 samples.

Results

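The Slc1a family carries glutamate and small neutral amino acids across the plasma membrane. All 7 mouse members, Slc1a1 to Slc1a7, were taken by name from the 28316 genes listed for retina and the 26528 listed for brain. The study removes Tgfbr1, a TGF-beta receptor, from endothelial cells of young mice. The CKO animals carry Cdh5CreER with a conditional Tgfbr1 allele over a null allele. Controls are labelled WT, without their alleles. The paper describes its control retinas as typically carrying Cdh5CreER with a conditional Tgfbr1 or Tgfbr2 allele over a normal one. Whether the sequenced controls did is not stated. Hydroxytamoxifen was given on postnatal days 3 to 5, and nuclei come from mice of postnatal day 14 (young adult in the labels). Single nuclei were sequenced from retina (1 control library, 11 CKO libraries) and from vascular fragments of brain (1 control library, 1 CKO library, 2 brains pooled in each). How many mice made up a retina library is not stated.

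Slc1a1, Slc1a2, Slc1a3, Slc1a6 and Slc1a7 encode transporters that take up glutamate and aspartate with sodium, and the Slc1a6 and Slc1a7 proteins also pass a large chloride current. Slc1a4 and Slc1a5 encode exchangers of neutral amino acids such as alanine, serine, cysteine and, for Slc1a5, glutamine. In the vertebrate retina the Slc1a3 protein is known in Müller glia, the Slc1a2 protein in cones and bipolar cells, and the Slc1a7 protein at photoreceptor and rod bipolar terminals.

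Levels are CPM: UMIs of a gene divided by the UMIs of all nuclei that share a cell type name in a library, times 1e6, given as mean and standard deviation over libraries with at least 10 such nuclei. The retina control holds 11513 nuclei and 30989702 UMIs, and the CKO libraries hold from 104 to 18862 nuclei. CKO replicate 4, the smallest with 90449 UMIs, reaches 10 nuclei only for ganglion cells (25 nuclei) and immune cells (65 nuclei). Each order of cell types below rests on a two-sided exact sign-flip permutation test of neighbouring means, paired by library and adjusted over 70 pairs, of which 19 passed. With 11 libraries the smallest p these tests can give is 0.000977, and the pairs that reach it have an adjusted p of 0.00526.

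Slc1a3, the glutamate transporter of glia, was highest in retinal astrocytes at 2162 ± 529 CPM (9 libraries, since CKO replicates 3, 4 and 11 have too few nuclei) and next in Müller glia at 1328 ± 118 CPM (11 libraries). Astrocytes lay above Müller glia in 9 of 9 libraries (mean log2 difference 0.67, adjusted p = 0.0171), while with nuclei of at least 1000 UMIs the difference was 0.61 in 7 of 7 libraries, and p = 0.0156, the smallest that 7 libraries can give, did not pass after adjustment (0.0547). The astrocyte group does not follow its markers cleanly: 2 of the 6 astrocyte markers were higher in Müller glia, 2 of the 7 Müller glia markers were highest in astrocytes, and so were 3 of 6 pericyte markers (478 CPM summed). Müller glia stood 3.301 log2 units above glycinergic amacrine cells (140 ± 38.8 CPM, adjusted p = 0.00526). In the control library Müller glia held 65.7% of all 3061 Slc1a3 UMIs (interval 64.0 to 67.4%) with 4.88% of all UMIs. All intervals on counts in this text are exact and cover counting error only.

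Slc1a3 was found in 91.3% of the 402 control Müller glia nuclei and 89.4% of the 2670 CKO ones, against 0.0151% of 6621 control rods and 0.451% of 34399 CKO rods. The CKO share for rods hangs on CKO replicates 10 and 11: without replicate 11 it is 0.265%, and without both it is 0.129%. Both are of kit version 5, as are replicates 8 and 9, which stay in. Rods are shallower, with a median of 961 UMIs per control nucleus against 3171.5 in Müller glia. After thinning to 1000 UMIs per nucleus, Slc1a3 was still found in 63.7% of control and 71.0% of CKO Müller glia. In glycinergic amacrine cells Slc1a3 reached 10.5% of its Müller glia level, where the 7 Müller glia markers had a median of 5.89% (1.69 to 8.65%). For horizontal cells the same figures were 7.99% and 13.0%, and for GABAergic amacrine cells 3.09% and 6.95%. Slc1a3 thus lies above the marker range in glycinergic amacrine cells, and below the marker median in horizontal and GABAergic amacrine cells. In ganglion cells the mean of 96.3 CPM hangs on CKO replicate 4, with 692 CPM from 25 UMIs, and without that library it is 42.2 ± 8.39 CPM.

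Slc1a2, the main glutamate transporter of forebrain astrocytes, was highest in retinal cones at 1162 ± 117 CPM. Rods followed at 649 ± 65.4, cone bipolar cells at 514 ± 59.5 and rod bipolar cells at 429 ± 73.8 CPM. Each step held in 11 of 11 libraries, with mean log2 differences of 0.84, 0.34 and 0.27 (adjusted p = 0.00526 for each). Müller glia had 297 ± 51.3 CPM of Slc1a2, and at least 1 Slc1a2 UMI was seen in 88.1% of the 411 control cones. By their means photoreceptors and bipolar cells carry Slc1a2 above glia, the reverse of the order for Slc1a3.

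Slc1a7, the photoreceptor and bipolar cell transporter, was highest in cones at 465.9 ± 51.2 CPM. Rod bipolar cells (389 ± 39.1) and rods (389 ± 53.2 CPM) could not be told apart (adjusted p = 0.923). Both means stood above that of cone bipolar cells, 218 ± 22.2 CPM, and the step from rods was 0.83 log2 units in 11 of 11 libraries (adjusted p = 0.00526). Rods held 48.7% of the 6823 Slc1a7 UMIs of the control library (interval 47.6 to 49.9%) with 27.8% of all UMIs. For Slc1a2 the rod share was 43.9% of 11582 UMIs.

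Rod transcripts are found in every retinal cell type, so Slc1a2 and Slc1a7 were set against 6 rod markers. In rod bipolar cells the markers had a median of 24.8% of their rod level (22.2 to 32.4%), Slc1a2 had 66.1% and Slc1a7 100.03%. In cone bipolar cells the markers had 27.6% (24.5 to 35.8%), Slc1a2 79.2% and Slc1a7 56.1%. Slc1a2 and Slc1a7 in both bipolar classes thus lie above the range of the rod markers. Cones lie above the marker range as well, with Slc1a7 at 119.8% and Slc1a2 at 179% where the markers have 46.3% (39.7 to 52.8%). In the other 7 cell types Slc1a7 lies within the marker range, for example 16.6% against a median of 16.1% in GABAergic amacrine cells and 26.8% against 29.3% in Müller glia. Slc1a2 lies above the top of the range in 6 of these 7: 45.8% against 41.4% in Müller glia, 28.1% against 25.3% in astrocytes, 21.8% against 20.8% in GABAergic and 34.2% against 32.4% in glycinergic amacrine cells, 27.8% against 23.9% in ganglion cells and 49.3% against 47.4% in immune cells.

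**Figure D1:**
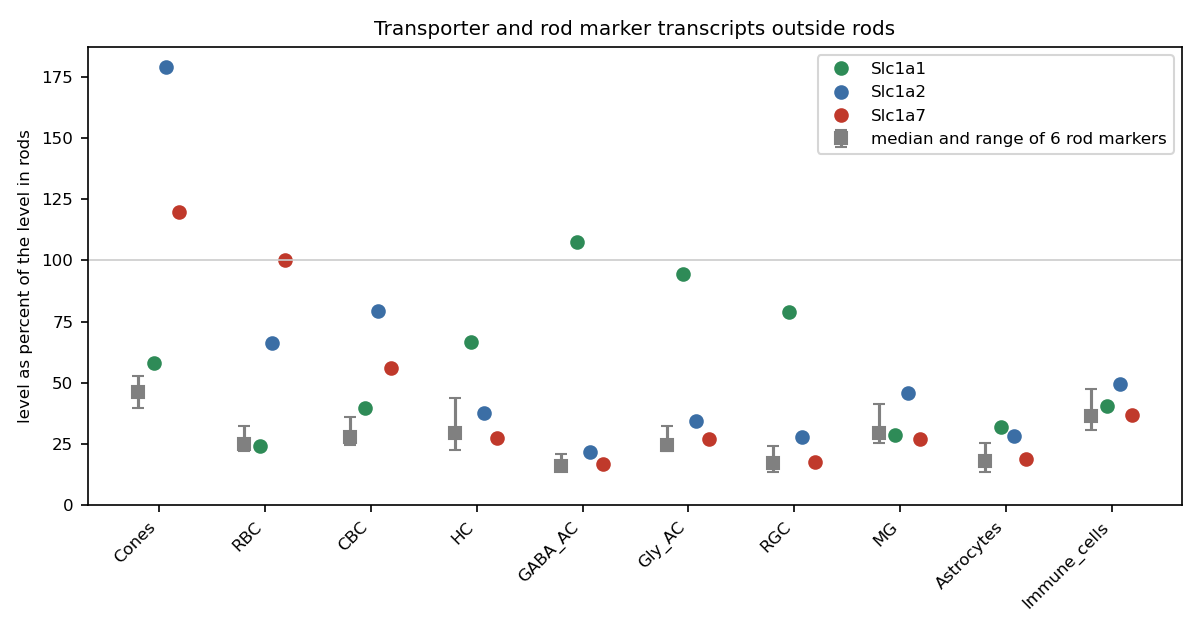
Level of Slc1a1, Slc1a2 and Slc1a7 in each retinal cell type as a percent of the level in rods, beside the median and range of 6 rod markers. Slc1a7 stands at 100.03% in rod bipolar cells, where the markers have a median of 24.8%.

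Slc1a1, the neuronal glutamate and cysteine transporter, had its highest mean in GABAergic amacrine cells at 75.1 ± 7.61 CPM. Rods (69.7 ± 9.33) and glycinergic amacrine cells (65.7 ± 6.50 CPM) followed, and neither step could be told apart from none (adjusted p = 0.256 and 0.439). Glycinergic amacrine cells stood above ganglion cells at 55.1 ± 9.54 CPM, by 0.27 log2 units in 11 of 11 libraries (adjusted p = 0.00526). Rod bipolar cells had the lowest mean, 16.8 ± 5.66 CPM. Slc1a1 in GABAergic amacrine cells was 108% of its rod level and in ganglion cells 79.1%, above the rod marker ranges of 14.6 to 20.8% and 13.5 to 23.9%. In rod bipolar cells it was 24.1%, inside the marker range.

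Slc1a6, the Purkinje cell transporter of the brain, was found mainly in inner retinal neurons. It reached 11.7 ± 1.85 CPM in glycinergic and 8.95 ± 1.56 CPM in GABAergic amacrine cells, and no more than 1.22 CPM outside amacrine and ganglion cells. Glycinergic lay above GABAergic amacrine cells in 9 of 11 libraries (mean log2 difference 0.36, adjusted p = 0.0281), though with means over nuclei 0.38 did not pass (adjusted p = 0.116), and GABAergic amacrine cells above cone bipolar cells by 2.25 log2 units (adjusted p = 0.00526). Ganglion cells had the highest Slc1a6 mean, 15.6 ± 30.0 CPM, because CKO replicate 4 gives 111 CPM from 4 UMIs. Without that library the ganglion cell mean is 6.97 ± 2.20 CPM, and its step below GABAergic amacrine cells has adjusted p = 0.155. That version was chosen after seeing the data. Paired over the 11 libraries with both cell types, which leave out replicate 4, ganglion cells lay below glycinergic amacrine cells in 10 (mean log2 difference -0.73, adjusted p = 0.00977).

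Slc1a4, the serine exchanger, had its highest means in glia: 34.5 ± 25.9 CPM in astrocytes (30 UMIs in all) and 34.5 ± 8.39 CPM in Müller glia. The 2 could not be ordered (adjusted p = 0.613), and Müller glia stood 1.46 log2 units above ganglion cells in 11 of 11 libraries (adjusted p = 0.00526). GABAergic amacrine cells, at 8.30 ± 1.25 CPM, stood 1.05 log2 units above glycinergic ones at 3.62 CPM (adjusted p = 0.00526). Slc1a4 in ganglion cells was 32.1% of its Müller glia level and in GABAergic amacrine cells 24.1%, above the Müller glia marker ranges of 3.58 to 11.5% and 3.14 to 20.8%. Summed over libraries, Müller glia hold 523 Slc1a4 UMIs, GABAergic amacrine cells 361 and ganglion cells 239. Slc1a5, the glutamine exchanger, was near the floor of detection. Its level with the most UMIs was 5.92 ± 1.14 CPM in cone bipolar cells (278 UMIs), above horizontal cells in 10 of 11 libraries (adjusted p = 0.0468). The mean log2 difference of 0.82 was 0.83 with nuclei of at least 1000 UMIs, 0.75 with CKO libraries only and 0.61 without CKO replicates 4 and 5, none of which passed (adjusted p = 0.0547, 0.0889 and 0.0889). Immune cells and cones had higher Slc1a5 means, 12.1 ± 12.1 and 8.48 ± 8.39 CPM, each with a spread about as large as the mean.

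Likeness of level was read over the 11 retinal cell types. These r describe points that share libraries, depth and the rod transcripts found in every cell type, and are not tests. Slc1a2 and Slc1a7 had r = 0.938 with each other, and Cacna1f, a photoreceptor and bipolar calcium channel gene, was among the 3 most alike genes of both (0.963 and 0.975). Sv2b, a synaptic vesicle gene, was most like Slc1a7 (0.981) and the sodium pump gene Atp1b2 most like Slc1a2 (0.971). Slc1a3 and Slc1a4 also had r = 0.938, with Adamts16 most like Slc1a3 (0.988) and Fgfr1 most like Slc1a4 (0.985). Slc1a1 was most like Bdh1 (0.962), Slc1a5 like Recql (0.908) and Slc1a6 like Trpc5 (0.985).

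No Slc1a member was called different between CKO and control retina. With edgeR, 0 of 52 combinations of member and cell type passed, where 9 of 115115 gene and cell type combinations did (0.00782%). None of the 52 had an unadjusted p under 0.05, and DESeq2 also gave 0 called and 0 under 0.05. With 1 control library these tests see large differences only, and the spread of the control is not measured but taken to be that of the CKO libraries. The intervals below rest on the same assumption.

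Müller glia Slc1a3 was 1331 CPM in the control (interval 1274 to 1391) and 1166 to 1625 in the CKO libraries, median 1313. Of the 10 CKO libraries 5 lay above and 5 below the control, and the log2 difference was -0.01 (95% interval -0.36 to 0.34). Slc1a3 in retinal astrocytes was 1982 CPM in the control and 1404 to 3163 in the CKO (median 2197), with a log2 difference of 0.18 (-0.70 to 1.07). For both glial types the control sits inside the CKO range.

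Slc1a2 in cones was 1039 CPM in the control against 1011 to 1337 (median 1187), log2 0.14 (-0.17 to 0.46). In rods it was 591 against 555 to 741 (median 651), log2 0.13 (-0.16 to 0.42). The control lay below 8 of 10 CKO libraries in both. Horizontal cell Slc1a2 was 139 CPM against 100.3 to 368 (median 252), log2 0.51 (-0.27 to 1.29), with 9 of 10 CKO libraries above the control. The unadjusted p for it falls to 0.0275 with batch as covariate, 0.0157 within batch 1 and 0.0243 without CKO replicates 4 and 5, and never passes after adjustment. Horizontal cell Slc1a2 has a mean of 37.7% of the rod level, inside the rod marker range of 22.5 to 43.6%.

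Slc1a7 in cones was 472 CPM against 411 to 561 (median 451), log2 0.07 (-0.29 to 0.44). In rods it was 387 against 311 to 479 (median 390.5), log2 0.23 (-0.19 to 0.66), and in rod bipolar cells 400.4 against 331 to 464 (median 376), log2 0.02 (-0.33 to 0.37). The control sits within the CKO range each time. The differences in cones and rod bipolar cells turn negative without the kit covariate, at -0.05 and -0.11.

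Slc1a1 in GABAergic amacrine cells was 63.3 CPM in the control (56.8 to 70.3) and 67.6 to 85.04 in the CKO (median 77.1), log2 0.17 (-0.11 to 0.45). In cones it was 24.0 CPM from 26 UMIs against 27.3 to 60.0 (median 41.7), log2 0.68 (-0.15 to 1.52). In rod bipolar cells it was 9.56 CPM from 20 UMIs against 10.5 to 26.3 (median 18.4), log2 0.65 (-0.24 to 1.53). The control lies below all 10 CKO libraries in these 3 cell types. For cones the unadjusted p is 0.0384 with batch as covariate and 0.0360 within batch 1.

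Müller glia Slc1a4 had the smallest unadjusted edgeR p of the 52, 0.0772. The control had 21.8 CPM (15.0 to 30.7) and the CKO libraries 19.9 to 43.3 (median 37.3), log2 0.67 (-0.08 to 1.41), with 9 of 10 CKO libraries above the control. Slc1a6 was 8.77 CPM against 8.54 to 13.7 (median 12.4) in glycinergic amacrine cells, log2 0.44 (-0.26 to 1.15), with 9 of 10 above the control. In GABAergic amacrine cells it was 9.19 against 6.51 to 11.5 (median 8.67), log2 0.05 (-0.61 to 0.72), and -0.11 without the kit covariate. Slc1a5 in rods was 0.814 CPM from 7 UMIs against 1.04 to 3.52 (median 2.39), log2 1.16 (-0.47 to 2.79), with all 10 CKO libraries above the control. In cone bipolar cells it was 5.86 against 4.49 to 8.41 (median 5.43), log2 0.01 (-0.80 to 0.83), and -0.06 without the kit covariate.

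**Figure D2:**
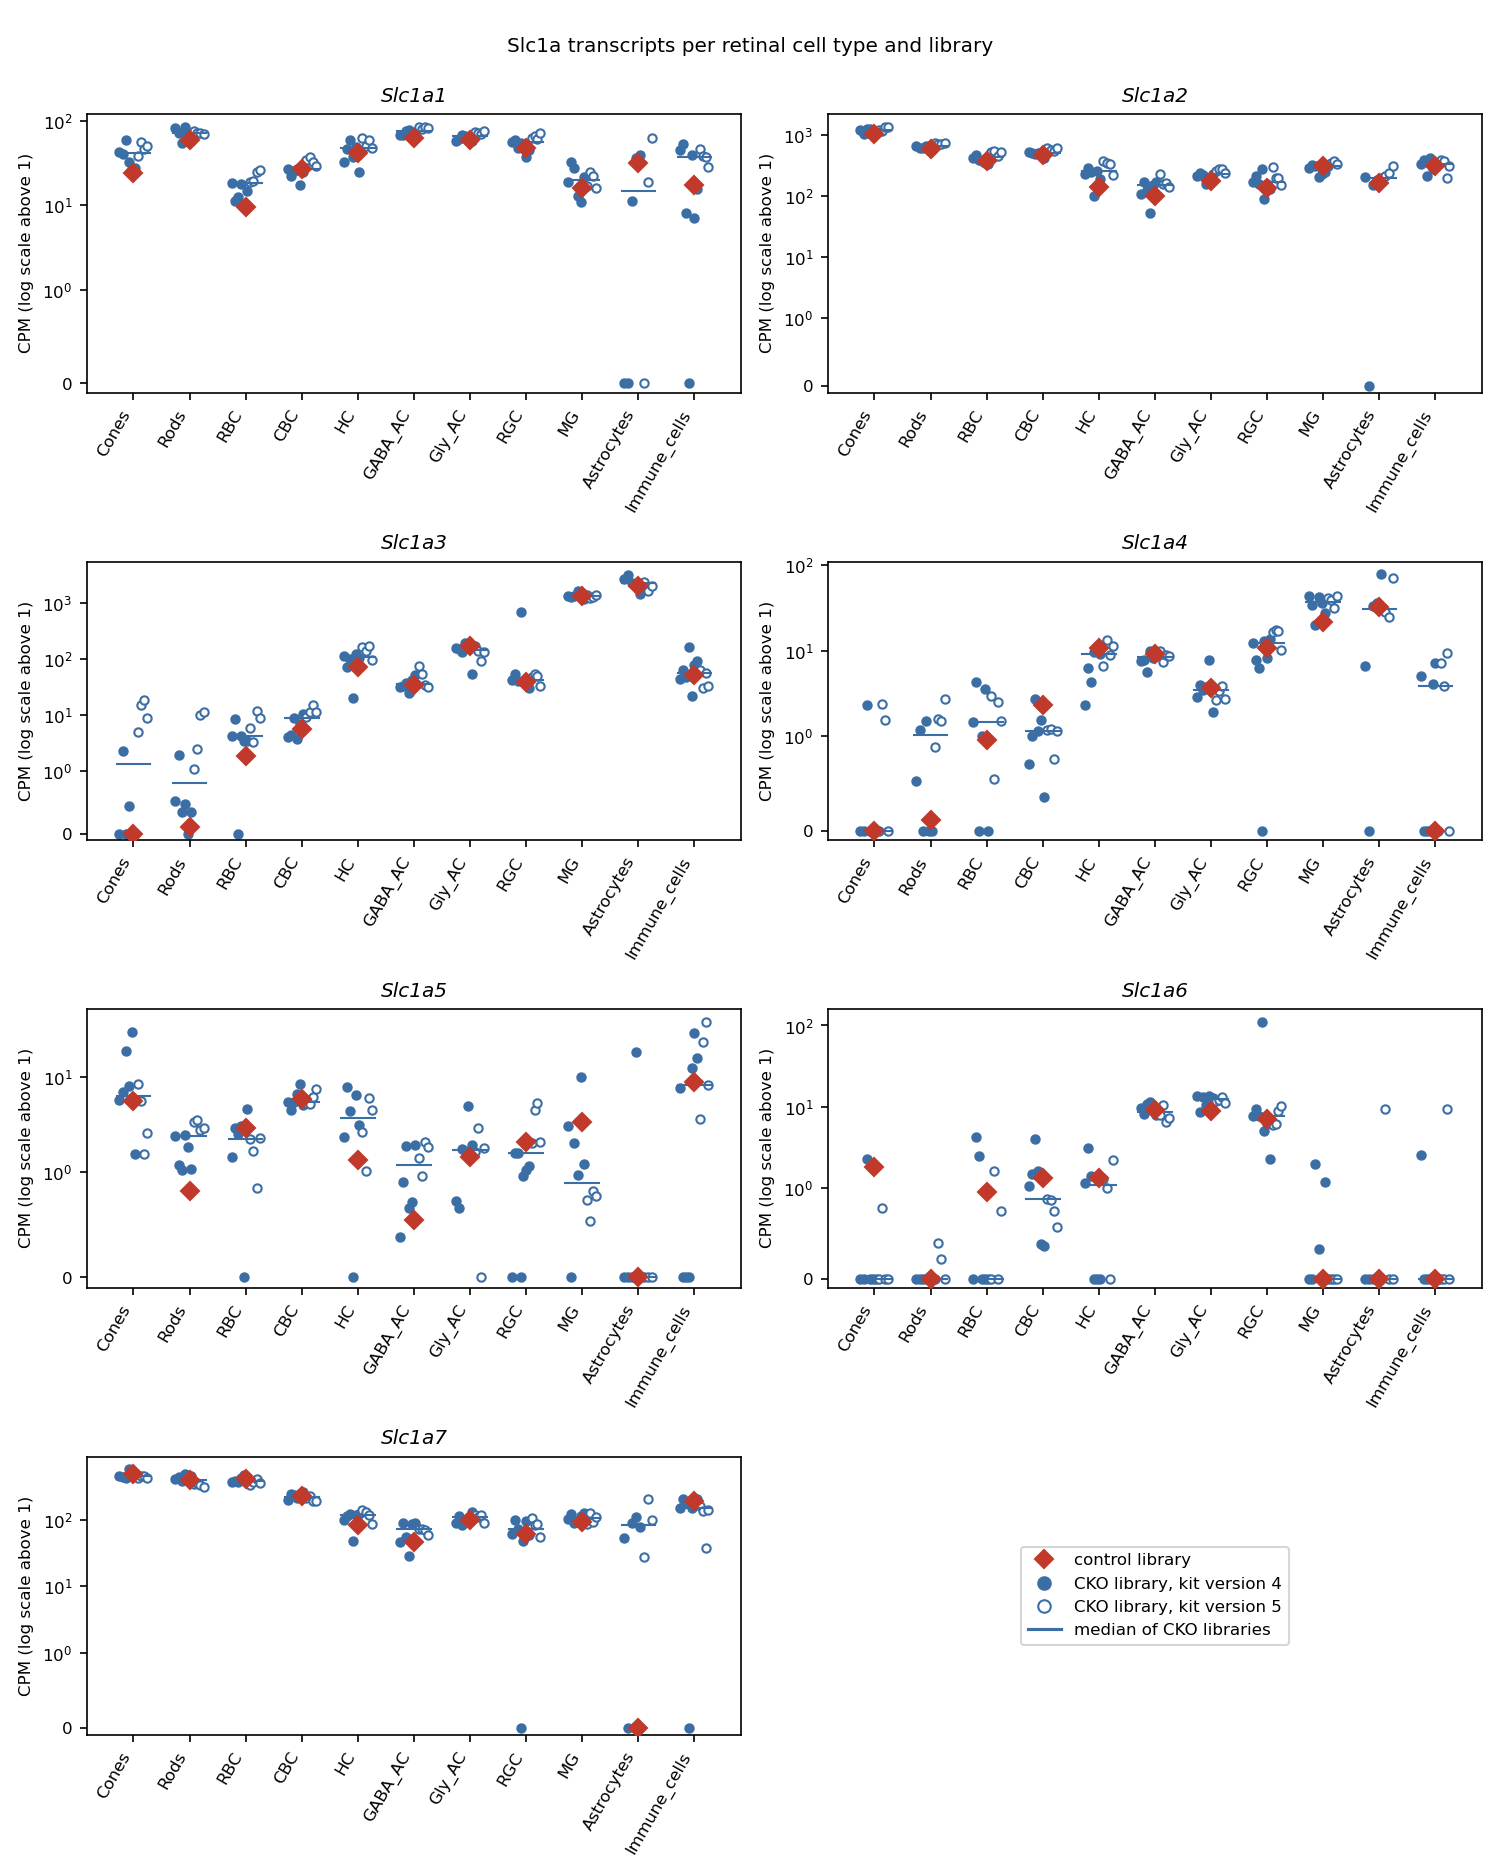
CPM of each Slc1a member by retinal cell type, each point a library with at least 10 nuclei, control and CKO marked apart. Müller glia Slc1a3 is 1331 CPM in the control and 1166 to 1625 in the CKO libraries.

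The control lay outside the CKO range in 4 of 52 combinations, where 12.1% of all gene combinations do. All 4 were below the range: Slc1a1 in GABAergic amacrine cells, cones and rod bipolar cells, and Slc1a5 in rods. Without CKO replicate 5 the count is 11 of 52, against 14.5% of genes, with 10 below and only Slc1a3 in glycinergic amacrine cells above. The additions below are Slc1a2 and Slc1a7 in GABAergic amacrine cells, Slc1a2 in glycinergic amacrine cells, and Slc1a2, Slc1a3 and Slc1a7 in horizontal cells. CKO replicate 5 is low for these, with 53.1 CPM of Slc1a2 and 28.4 CPM of Slc1a7 in GABAergic amacrine cells and 20.5 CPM of Slc1a3 in horizontal cells.

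Kit version moves with some of these levels, and the control is a version 4 library. CKO libraries of the 2 kit versions did not overlap in 11 of 52 combinations, where 13.1% of all gene combinations do not, and all version 5 libraries are in batch 3, beside CKO replicates 6 and 7 of version 4. CKO libraries of kit version 4 and version 5 did not overlap for Slc1a1 in GABAergic amacrine cells (67.6 to 78.1 against 79.4 to 85.04 CPM) or rod bipolar cells (10.5 to 18.6 against 19.0 to 26.3 CPM). The same held for Slc1a2 in rods (555 to 652 against 704 to 741 CPM) and Slc1a5 in rods (1.04 to 2.40 against 2.74 to 3.52 CPM). Slc1a7 in rods went the other way (373 to 479 against 311 to 354 CPM).

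Genes that work beside the members were read in 4 lists: the glutamate cycle (17 genes), other amino acid transporters (22), the sodium and potassium gradient (11) and serine and glutathione synthesis (10). In retina 0 of their 462 gene and cell type combinations were called by edgeR and 17 had an unadjusted p under 0.05, with the same 0 and 17 from DESeq2. That is 3.68% of the list combinations, and 3.68% of all 115115 have such a p. In Müller glia, home of Slc1a3 and Slc1a4, the list medians were log2 0.04, 0.16, 0.26 and -0.01, beside 0.02 for all genes. The largest list median was that of serine and glutathione synthesis in immune cells, 2.38 beside 0.05, where 3 of 5 genes had an unadjusted p under 0.05 and 0 were called. The control has 29 immune nuclei. By the paper only microglia are shared by both genotypes and further immune classes come from CKO retinas, so the label differs in cell content.

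In brain, Slc1a2 and Slc1a3 marked astrocytes. The control library has 49798325 UMIs in 16649 nuclei and the CKO library 31033373 in 14675. Control astrocytes had 10827 CPM of Slc1a2 and held 55.7% of its 26473 UMIs (interval 55.1 to 56.3%) with 2.74% of all UMIs. For Slc1a3 they had 3668 CPM and 51.0% of 9806 UMIs. The cells named glia came next for Slc1a3 at 1014 CPM, and they carry fibroblast markers (3774 CPM summed in the control) beside astrocyte markers (929 CPM). Aldh1l1, an astrocyte gene, was most like Slc1a2 over the 21 control cell types (r = 0.883) and Plpp3 most like Slc1a3 (0.938), again as description of points from 1 library.

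Slc1a6 in brain was highest in the Glut_21 cluster, with 451 CPM and 70.2% of its 735 control UMIs (interval 66.8 to 73.5%) from 2.30% of all UMIs. Calb1, at 795 CPM in that cluster, was most like Slc1a6 (r = 0.878), followed by Rmdn3 and Pcp2 (both 0.764). Pcp2 was higher in Glut_20 (325 CPM) than in Glut_21 (309 CPM). Despite its name Glut_21 has little of the vesicular glutamate transporters, 23.6 CPM of Slc17a7 and 20.1 of Slc17a6. It also has little of the vesicular GABA transporter, 9.62 CPM of Slc32a1. Gad1 and Gad2 were 136 and 85.7 CPM there, against 713 and 578 in GABA_22. The CKO level of Slc1a6 there was 509 CPM, ratio 1.13 (0.988 to 1.28).

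Slc1a1 was highest in control OPCs (342 CPM), oligodendrocytes (230.2 CPM) and endothelial cells (175 CPM). Endothelial cells held 39.6% of the 1044 Slc1a4 UMIs (interval 36.6 to 42.6%) with 11.7% of all UMIs, at 71.2 CPM, while the Slc1a4 level was highest in astrocytes at 129.9 CPM. Endothelial cells also held 35.1% of the 442 Slc1a5 UMIs, at 26.7 CPM, and the glia cluster 34.8%, at 88.9 CPM. Slc1a7 had 27 UMIs in the whole control library. Slc1a1 was most like Cdc42se2 (r = 0.888) and Slc1a4 most like Gpam (0.915).

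Brain has 1 library per genotype, so no test was made, and a ratio between libraries cannot be told apart from a difference between the preparations. Of 57 combinations with at least 50 UMIs, 17 passed 1.5-fold, 6 higher and 11 lower in CKO, beside 24.7% of all gene combinations. That share over all cell types is not split by direction here, so the 6 and 11 cannot be set against it. With means over nuclei 25 passed, 12 higher and 13 lower. At 2-fold 4 of the 17 remained. The share of all genes is given for 1.5-fold and the main setting only, so the other counts cannot be set against it.

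Endothelial cells, the cells targeted by Cdh5CreER, had Slc1a4 at 71.2 CPM in control and 109 in CKO, ratio 1.53 (1.35 to 1.72), where 30.7% of genes passed 1.5-fold. The median gene of these cells had a ratio of 1.10. With a TMM factor, which shifts endothelial values by log2 -0.10, the Slc1a4 ratio is 1.42 and no longer passes, and with nuclei of at least 1000 UMIs it is 1.39. Slc1a1 had 175 and 157 CPM, ratio 0.898 (0.823 to 0.979), and Slc1a5 26.7 and 29.6 CPM, ratio 1.11 (0.895 to 1.38). Slc1a6 and Slc1a7 had at most 5 UMIs.

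Endothelial Slc1a2 was 121 CPM in control and 67.6 in CKO, ratio 0.559 (0.496 to 0.630), and Slc1a3 was 54.3 and 77.1 CPM, ratio 1.42 (1.23 to 1.64). Much of the Slc1a2 comes from few nuclei: 20 of them hold 64.9% of the 701 control UMIs and 41.7% of the 463 CKO ones. For Slc1a3 the top 20 nuclei hold 50.8% of the 315 control UMIs but 18.8% of the 528 CKO ones. With means over nuclei the Slc1a2 ratio is 0.702 and no longer passes, and the Slc1a3 ratio is 1.61 and does. Summed astrocyte markers in the endothelial cells were 195 and 238 CPM. As a percent of the astrocyte level, the median of 5 of these markers fell from 1.69 (0.806 to 37.2) to 1.22 (0.522 to 44.1). Slc1a2 was 1.12 and 0.636 percent and Slc1a3 1.48 and 1.93 percent, within the marker range in both libraries. Without the 15 control and 22 CKO nuclei that carry at least 2 astrocyte marker UMIs, the Slc1a2 ratio is 0.662 (0.580 to 0.756). The Slc1a3 ratio becomes 1.80 (1.54 to 2.12) and passes 1.5-fold.

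Astrocyte Slc1a2 was 10827 CPM in control and 10631 in CKO, ratio 0.982 (0.952 to 1.01), and Slc1a3 3668 and 3984 CPM, ratio 1.09 (1.03 to 1.14), where 35.6% of genes passed 1.5-fold. Slc1a4 was 129.9 and 156 CPM, ratio 1.203 (0.911 to 1.58). None of the 3 passes. Depth is unequal, with a median of 1150.5 UMIs per control astrocyte nucleus and 578.5 per CKO one. With nuclei of at least 1000 UMIs alone (563 control, 109 CKO), Slc1a2 has a ratio of 0.593 (0.558 to 0.629) and passes, and Slc1a3 turns to 0.751 (0.684 to 0.824). The TMM factor shifts astrocytes by log2 -0.24 and gives 0.832 for Slc1a2 and 0.921 for Slc1a3.

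In the glia cluster Slc1a3 was 1014 CPM in control and 515 in CKO, ratio 0.508 (0.444 to 0.579), and Slc1a5 88.9 and 38.1 CPM, ratio 0.428 (0.251 to 0.692). The cluster has 1227 control and 419 CKO nuclei, and its summed astrocyte markers were 929 and 1266 CPM. The median of 5 of these markers, as a percent of the astrocyte level, went from 6.14 (3.11 to 177) to 5.91 (2.56 to 227). Of all genes in the cluster 37.9% passed 1.5-fold. In OPCs Slc1a2 was 132 CPM from 69 UMIs in control and 412 from 86 in CKO, ratio 3.11 (2.24 to 4.33). Of all genes in OPCs 45.4% passed 1.5-fold. Summed astrocyte markers in OPCs were 117 and 201 CPM. As a percent of the astrocyte level, the median of 5 of them was 1.38 (1.05 to 52.1) and 2.02 (1.63 to 61.7). Slc1a2 in OPCs was 1.22 and 3.87 percent, within the marker range in both libraries. Slc1a1 in OPCs was 342 and 254 CPM, ratio 0.742, and passes 1.5-fold with the TMM factor at 0.582 and with nuclei of at least 1000 UMIs at 0.488.

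Oligodendrocyte Slc1a1 was 230.2 CPM in control and 328 in CKO, ratio 1.43, and the direction depends on depth: 1.58 with the TMM factor but 0.855 with nuclei of at least 1000 UMIs. Slc1a2 there was 49.6 and 86.5 CPM, ratio 1.74 (1.23 to 2.46), but 1.203 with the deeper nuclei. All 77 control UMIs come from 17 nuclei, with 42 in 1 nucleus, and 20 nuclei hold 58 of the 63 CKO UMIs. Without nuclei that carry astrocyte marker UMIs, a version chosen after seeing the data, the Slc1a2 ratio is 6.16 (3.66 to 10.8). That ratio rests on 20 control and 61 CKO UMIs. Of all genes in oligodendrocytes 42.0% passed 1.5-fold.

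Among the Glut and GABA clusters Slc1a2 had ratios of 0.657 in Glut_14, 0.665 in Glut_17, 0.566 in Glut_19 and 0.590 in Glut_21 (0.467 to 0.742). Slc1a1 in GABA_9 was 94.7 and 55.7 CPM, ratio 0.588 (0.454 to 0.756). Slc1a4 in Glut_1 was 9.24 and 3.17 CPM, ratio 0.343 (0.178 to 0.618). These are lower in CKO, while Slc1a2 in CP_8, a cluster outside both names, was higher at 181 and 320.03 CPM, ratio 1.77 (1.499 to 2.09). Of all genes, 14.9% passed 1.5-fold in Glut_14, 18.4% in Glut_17, 11.3% in Glut_19 and 15.7% in Glut_21. The shares were 16.3% in GABA_9, 19.9% in Glut_1, 26.6% in CP_8, 20.0% in Glut_0 and 24.4% in Glut_11. In each of these clusters but Glut_21 (400 higher, 294 lower), more genes passed lower than higher in CKO. Slc1a3 was higher in Glut_0 (ratio 1.90) and Glut_11 (2.59), and lower in Glut_1 (0.636) and Glut_14 (0.590), all at levels far under those of astrocytes. Some of these no longer pass under other settings: Slc1a2 in Glut_17 with the TMM factor (0.717), with nuclei of at least 1000 UMIs (0.669) and with means over nuclei (0.729), and Slc1a2 in Glut_14 with the deeper nuclei (0.678). With means over nuclei, Slc1a3 in Glut_0 (1.42) and Glut_14 (0.820) also drop out, and the ratios of Slc1a1 in GABA_9 (0.323), Slc1a2 in Glut_21 (0.284) and CP_8 (2.67), Slc1a3 in Glut_1 (0.397) and Slc1a4 in Glut_1 (0.227) lie further from 1. As a percent of the astrocyte level, the median of 5 astrocyte markers fell from control to CKO in Glut_14 (1.30 to 0.639). Slc1a2 and Slc1a3 in Glut_14 lay within the marker range in both libraries. So did Slc1a2 in Glut_19 and Glut_21, and Slc1a3 in Glut_0, Glut_1 and Glut_11. Slc1a2 lay above the range in Glut_17 in both libraries. In CP_8 it lay below the range in control and within it in CKO. The median also fell in Glut_19 (0.773 to 0.283), Glut_1 (0.315 to 0.0963) and Glut_0 (0.0705 to 0.0241). It rose in Glut_21 (1.91 to 3.05), CP_8 (4.56 to 5.31), GABA_9 (0.198 to 0.346) and Glut_11 (0.121 to 0.138). In Glut_17 it was 0 in both. The cause was not tested.

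Among the lists in brain endothelial cells, serine and glutathione synthesis had 5 of 9 genes past 1.5-fold, all higher in CKO, with a median log2 ratio of 0.73 beside 0.14 for all genes. Of all 11351 genes in these cells 30.7% passed, 2428 higher and 1058 lower. Other amino acid transporters had 1 higher and 5 lower of 14 (median -0.33), the glutamate cycle 2 and 2 of 10 (0.20) and the sodium and potassium gradient 2 and 1 of 8 (-0.09). Among the most extreme genes with at least 200 UMIs were Slc6a13 (27.8 and 8.03 CPM, ratio 0.289), Gclc (9.82 and 24.1, 2.45), Slc7a8 (85.1 and 41.3, 0.485), Slc7a11 (25.2 and 13.1, 0.522) and Slc38a3 (599 and 319, 0.533). Slc7a5 and Slc3a2, chosen after their values were seen, encode the pair that forms a large neutral amino acid exchanger and had ratios of 0.584 and 0.630. Slc38a3 carries glutamine and Slc7a11 exchanges cystine for glutamate, substrates that meet those of Slc1a5 and of the glutamate transporters.

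In astrocytes, where Slc1a2 and Slc1a3 did not pass, the same lists had 0 higher and 1 lower of 7 glutamate cycle genes and 1 and 3 of 9 other transporters. The gradient list had 0 and 0 of 5, and serine and glutathione synthesis 0 and 2 of 4. Of all 3482 genes in astrocytes 35.6% passed, 465 higher and 774 lower. Slc25a12, the aspartate and glutamate carrier of mitochondria, had 167 and 96.9 CPM (ratio 0.579) and Slc7a11 333 and 552 CPM (ratio 1.66). These too are ratios of 1 library to 1 library.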

How the data were processed

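Nuclei of retina and of brain vascular fragments were sequenced with PIPseq; kit version 4 for the control, CKO replicates 1 to 7 and brain, version 5 for CKO replicates 8 to 11. The values deposited by the authors are count values, UMIs per gene and nucleus, after PIPseeker 3.3.0 with GRCm39, CellBender, SOLO and manual removal of mixed nuclei and of clusters with several nuclei from CKO replicates 4 and 5 (the labels name mm10 and Seurat). The UMAP files were not used. Cell type names are those deposited. UMIs were summed per cell type and library and divided by their total, as CPM.

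Tgfbr1 was read before the members: retina had 89.0 CPM in the control and 71.4 to 87.0 in 10 CKO libraries, with 365 in CKO replicate 4 (33 UMIs) and a median of 79.4 over all 11, and brain endothelial cells 69.1 and 62.9. The files do not give the deleted part of Tgfbr1 or where the tags fall, and a tag outside that part checks nothing, so the genotype was not checked. The label markers of rods, cones, rod bipolar, GABAergic amacrine, horizontal, ganglion and immune cells were all highest in their own cell type; cone bipolar cells had 4 of 6, glycinergic amacrine cells 3 of 4, Müller glia 5 of 7 and astrocytes 4 of 6. In brain the 6 endothelial markers were highest in endothelial cells (8974 and 7231 CPM summed). Between libraries 20 of 77676 retina nuclei and 4 of 31324 brain nuclei share a barcode. The gene lists differ between libraries of 2 annotations, and 24645 of 27799 retina genes have UMIs in both.

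edgeR 4.0.16 (quasi-likelihood, TMM, kit as covariate) and DESeq2 1.42.0 in R 4.3.3 compared CKO with control retina. Cell types needed 10 nuclei per library, genes 10 UMIs in 3 libraries and UMIs in both annotations, and p was adjusted by Benjamini-Hochberg over all genes and cell types. All tests are two-sided. Cell type order used an exact sign-flip permutation of log2(CPM + 1). Brain has 1 library per genotype and no test: ratios have exact conditional binomial intervals, a minimum of 50 UMIs and a fold of 1.5. Python 3.11.15 with numpy 2.4.6, pandas 2.3.3, scipy 1.17.1 and matplotlib 3.10.9 did the rest. The members and the 4 lists (glutamate cycle, other amino acid transporters, sodium and potassium gradient, serine and glutathione synthesis) were chosen with earlier results of these data known. List genes could be named where called in retina, or where among the 6 most extreme past 1.5-fold in brain with at least 200 UMIs; not all of these are named. Scaling, filters, covariates, depth limits and left-out libraries were varied.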

Additional observations from a re-analysis of the deposited data

Results flagged for a closer look

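Of 42 groups of CKO libraries examined for a value far from the rest, 2 stood apart, and about 1 in 20 groups would by chance. Slc1a3 in Müller glia was 1625 CPM in CKO replicate 5 (5048 UMIs, 690 nuclei), where the other CKO libraries had 1166 to 1375 and the control 1331. Slc1a4 in glycinergic amacrine cells was 7.69 CPM in CKO replicate 6 (14 UMIs, 690 nuclei), where the others had 1.89 to 3.94 and the control 3.68. The causes were not tested.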

How the results depend on the processing

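Of 173 alternative fits for 16 differences of members in retina, 157 kept direction and side and 16 reversed, and no member was called under any setting. The reversals: Slc1a3 in Müller glia 0.0231 with library totals; Slc1a7 in cones -0.0468 without the kit covariate, -0.12 with batch, -0.15 within batch 1; Slc1a7 in rod bipolar cells -0.0174 without the count filter, -0.11 without the kit covariate, -0.14 with batch, -0.16 within batch 1 and -0.00387 with nuclei of at least 1000 UMIs; Slc1a6 in GABAergic amacrine cells -0.11 without the kit covariate and -0.0269 without CKO replicates 4 and 5; Slc1a5 in cone bipolar cells -0.0638 without the kit covariate, -0.19 with batch, -0.19 within batch 1, -0.0266 without CKO replicates 4 and 5 and -0.0262 with the deeper nuclei. Over all genes 9 were called, 104 with DESeq2, 153 of 246010 without the count filter, 3 with batch and 63 of 86978 within batch 1. The control lay outside the CKO range for 4 of 52 members and cell types, beside 12.1% of all gene combinations. Without CKO replicates 4 and 5 the count was 11, beside 15.7%. Without 5 alone it was 11, beside 14.5%, and without 4 alone it was 4, beside 13.2%. The single-library versions were chosen after seeing the data. In brain 17 passed, 9 with 200 UMIs and 4 at 2-fold; 19 with the deeper nuclei (13 shared), 25 with means over nuclei (13 shared), 17 with the TMM factor (15 shared), 24 of 70 with 20 UMIs, and 18 without endothelial nuclei with astrocyte marker UMIs, a version chosen after seeing the data. In brain the share of all genes past the fold is given for the main setting only. The other counts of members in brain have none beside them. Of 83 alternative brain ratios 61 stayed within the interval and 22 moved. For the 17 ratios past 1.5-fold 0 alternatives turned the direction; for the other 9 there were 5: Slc1a1 in oligodendrocytes (0.855) and Slc1a3 (0.751) and Slc1a4 (0.811) in astrocytes with the deeper nuclei, Slc1a3 in astrocytes with the TMM factor (0.921) and Slc1a2 in astrocytes with means over nuclei (1.04). The top cell type of Slc1a6 becomes glycinergic amacrine cells with nucleus means, without CKO replicates 4 and 5 and without 4, the last chosen after seeing the data. The causes were not tested. Astrocytes could not be fitted within batch 1, nor astrocytes and immune cells with 30 nuclei. For CKO against control: No paired analysis was possible because the control groups have 1 library.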
